A study of Mus musculus with 11 samples.

Results

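Otospheres, the floating spheres that form from dissociated cells of the newborn mouse cochlea, were compared with mouse embryonic stem cells (ESCs) across all genes of a single-colour microarray. The members were chosen by the array labels alone: the 6 arrays titled OS1 to OS6 and the 2 arrays titled ES1 and ES2, of 11 arrays in the series. OS1 with OS2, and OS4 with OS5, differed by less than the noise between repeated spots and were each averaged, so 4 otosphere samples stood against 2 ESC samples. Otospheres came from ICR mice aged 1 day, from the cochlear sensory epithelium (CSE) of 10 mice (20 cochleae) per preparation, pooled. Dissociated cells were cultured for 4 to 5 days, passaged 1 time and cultured for another 4 to 5 days, without serum, in a medium with N2 and B27 supplements, bFGF, IGF1 and heparan sulfate, and the secondary spheres were passed through a cell strainer. ESCs were of the lines G4-2 (ES1) and D3 (ES2), 1 array each, at passage 13, grown without feeder cells in 10% fetal bovine serum and leukaemia inhibitory factor (LIF). Neither group was treated or carried a deletion that the labels name. The groups therefore differ at the same time in source, in mouse strain, in medium and in culture as spheres or attached, and these cannot be told apart in any value below.

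ESCs are held in a self-renewing state by a network of transcription factors around Oct4 (Pou5f1), Sox2 and Nanog, kept active by LIF signalling, and they divide fast with a short G1 phase. The cochlear sensory epithelium derives from the otic placode, which is patterned by Sox, Eya, Gata and Pax factors, and it secretes the collagens, tectorins and proteoglycans of the acellular matrices over the hair cells. Cells of this epithelium from newborn mice can form spheres that divide in culture, an ability that is lost as the animals grow older.

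A signal is given here as log2 of a background-corrected, quantile-normalised intensity, in which a difference of 1 is a 2-fold change, and values are set against each other only for the same probe. Otosphere values follow the order OS1+OS2, OS3, OS4+OS5, OS6, and a difference is always the otosphere mean minus the ESC mean. Between 55.1% and 68.2% of the spots besides controls were well above background on the otosphere and ESC arrays. No spot reached saturation, and precision is limited by how few arrays there are. The labels do not say whether the 4 otosphere samples came from separate preparations, so the spread between these samples may be technical. Unless another fit is named, a p-value rests on a spread pooled over the otospheres, the ESCs and the 3 arrays of intact CSE. Each ESC array lay on another slide, with OS1 to OS3 beside ES1 on slide 1 and OS4 to OS6 beside ES2 on slide 2, so that the line of the ESCs and the slide cannot be told apart. An exact permutation test of 4 samples against 2 has 15 splits and cannot go below a two-sided p of 0.0667; the tests below are those of a limma model fitted across all probes, with Benjamini-Hochberg adjusted p-values and a threshold of 0.05.

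Of 47997 probes kept after a filter on dim signals, 5796 (12.1%) were higher in otospheres and 7489 (15.6%) were lower. With 1 probe for each of 18567 named genes, 3418 genes (18.4%) were higher and 3795 (20.4%) lower in otospheres, and the difference exceeded 2-fold for 2985 and 3108 of these. A change of more than 16-fold was found for 344 genes higher and 224 lower in otospheres. Among the genes that were higher, 448 were not well above background on any ESC array, and 369 of the genes that were lower were not on any otosphere array. For such genes the fold is printed as a bound, "at least". In it the dim group is given, array by array, the lowest signal that any probe well above background had there. Where the gene's own signal on that array was higher, it was used instead, so the bound can equal the measured fold. The 4 otosphere and 2 ESC samples did not overlap for 54.8% of the genes, so a lack of overlap by itself says little here. Probes for long non-coding transcripts drawn from genomic intervals, of which 13129 were kept, were called less often than probes of named genes, 5.28% higher and 8.58% lower against 17.9% and 20.5%.

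**Figure D1:**
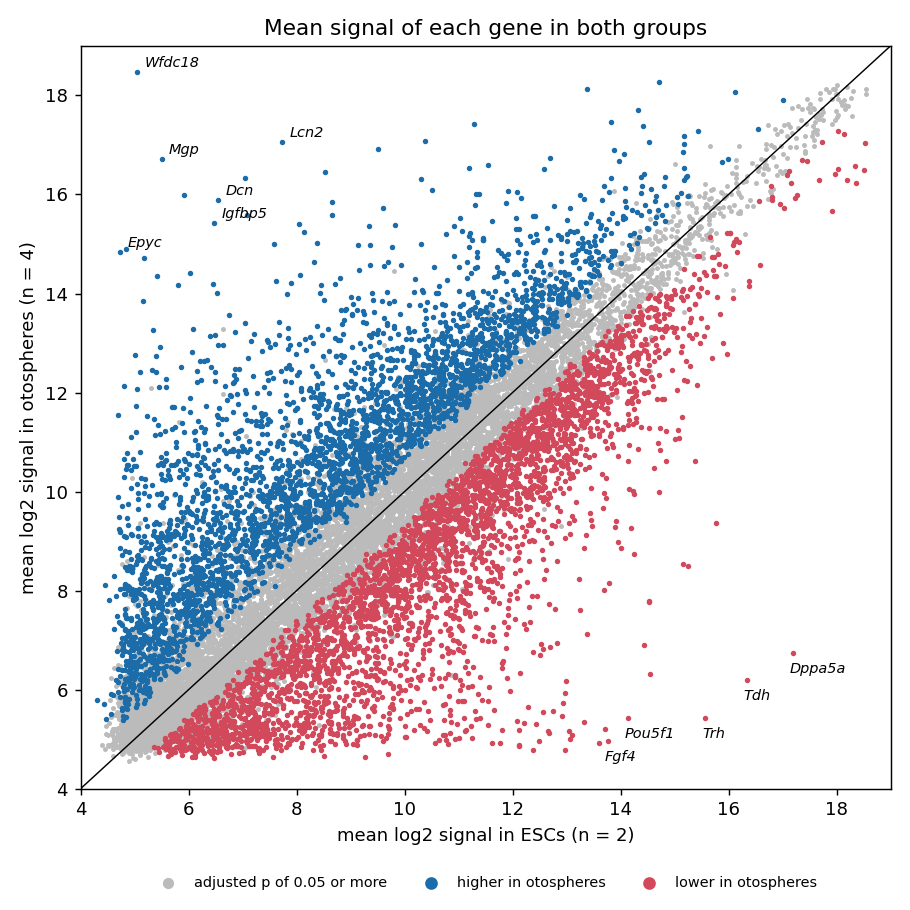
Mean log2 signal of each of 18567 genes in ESCs (x axis, n = 2) and in otospheres (y axis, n = 4), with 1 probe a gene. Blue points are the 3418 genes higher and red points the 3795 genes lower in otospheres at an adjusted p under 0.05, grey points are the others, and the line marks equal means.

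The gene with the largest difference was Wfdc18, a secreted protein with a whey acidic protein domain. Its log2 signal was 4.98 in ES1 and 5.12 in ES2, not well above background on either ESC array, against 18.59, 18.13, 18.56 and 18.59 in the otosphere samples. It was at least 8682-fold higher in otospheres (adjusted p = 7.34e-05). The standard error of its difference, 1.18, includes the spread of the CSE arrays, which were at 11.45, 6.01 and 7.49. The SD was 0.22 among the otosphere samples and 0.10 among the ESC samples. OS1+OS2 and OS6 had the identical value of 18.5887. Quantile normalisation gives equal ranks equal values, so the SD among otospheres may be too small. Mgp, matrix Gla protein, which keeps cartilage from calcifying, was 18.14, 17.53, 17.34 and 13.83 in otospheres against 5.24 in ES1 and 5.77 in ES2, at least 2362-fold higher (adjusted p = 8.58e-05). OS6 had the lowest Mgp signal of the otospheres by more than 3 on the log2 scale and still lay far above both ESC samples. Of the other 8 genes with the largest rises, Epyc, Lum and Dcn encode small leucine-rich proteoglycans of the matrix, and Cnmd encodes chondromodulin, a cartilage glycoprotein that inhibits vessel growth. Epyc was at least 702-fold, Lum at least 730-fold and Cnmd at least 626-fold higher, none of them well above background on an ESC array. The log2 difference was 9.33 for Dcn, 10.07 for Sparcl1, a secreted matrix protein related to SPARC, 9.29 for the protease inhibitor Cst6 and 8.95 for Igfbp5, which binds insulin-like growth factors (adjusted p between 6.67e-06 and 1.78e-05 for these 4). Lcn2, an iron-siderophore binding protein of the acute phase, was 18.32, 18.07, 18.12 and 13.69 in otospheres against 8.22 in ES1 and 7.23 in ES2, a difference of 9.32 (standard error 1.35, adjusted p = 9.94e-04). The first 3 otosphere samples were within 0.3 of each other for Lcn2, and OS6 was more than 4 below them. Without OS6 the difference was 10.44 (adjusted p = 0.000107).

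The 10 genes with the largest falls, ranked among probes named by accession, include factors and enzymes of the pluripotent state. A Nanog probe named through the study's gene table was left out of this ranking. It differed by -8.99 (adjusted p = 1.60e-06), more than some of the 10. Dppa5a, an RNA-binding protein of pluripotent cells, was 17.16 in ES1 and 17.25 in ES2 and 6.27, 6.84, 6.70 and 7.13 in otospheres, a difference of -10.47 (standard error 0.24, adjusted p = 7.01e-08). Tdh, threonine dehydrogenase, on which mouse ESCs depend for glycine and acetyl-CoA, was 16.50 in ES1 and 16.18 in ES2 and 6.18, 6.24, 6.004 and 6.33 in otospheres (difference -10.15, adjusted p = 5.20e-08). Pou5f1 itself was 14.02 in ES1 and 14.27 in ES2 and 5.53, 5.41, 5.37 and 5.41 in otospheres (difference -8.71, adjusted p = 5.20e-08), and it was well above background on 1 otosphere array of 6. For each of these genes the ESC samples lay near each other and the otosphere samples lay together far below them. Gdf3, a ligand of the Nodal family, and Fgf4, the fibroblast growth factor that ESCs secrete, were at least 576-fold and 425-fold lower in otospheres, where no array was well above background for either. Fbxo15, an F-box protein that is a known Oct4 target, was at least 365-fold lower. Tex19.1, which restrains retrotransposons in the germ line, was at least 378-fold lower, and Rpl10l, a retrocopy of a ribosomal protein gene that is used in the testis, at least 250-fold. The other 2 were Trh, the precursor of thyrotropin-releasing hormone, at -10.16 (adjusted p = 1.03e-07), and Pigp, a subunit of the enzyme that starts the glycosylphosphatidylinositol anchor, at -10.17 (adjusted p = 3.05e-07). Dppa5a and Rpl10l have close copies in the genome, so their probes may not measure 1 gene alone.

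**Figure D2:**
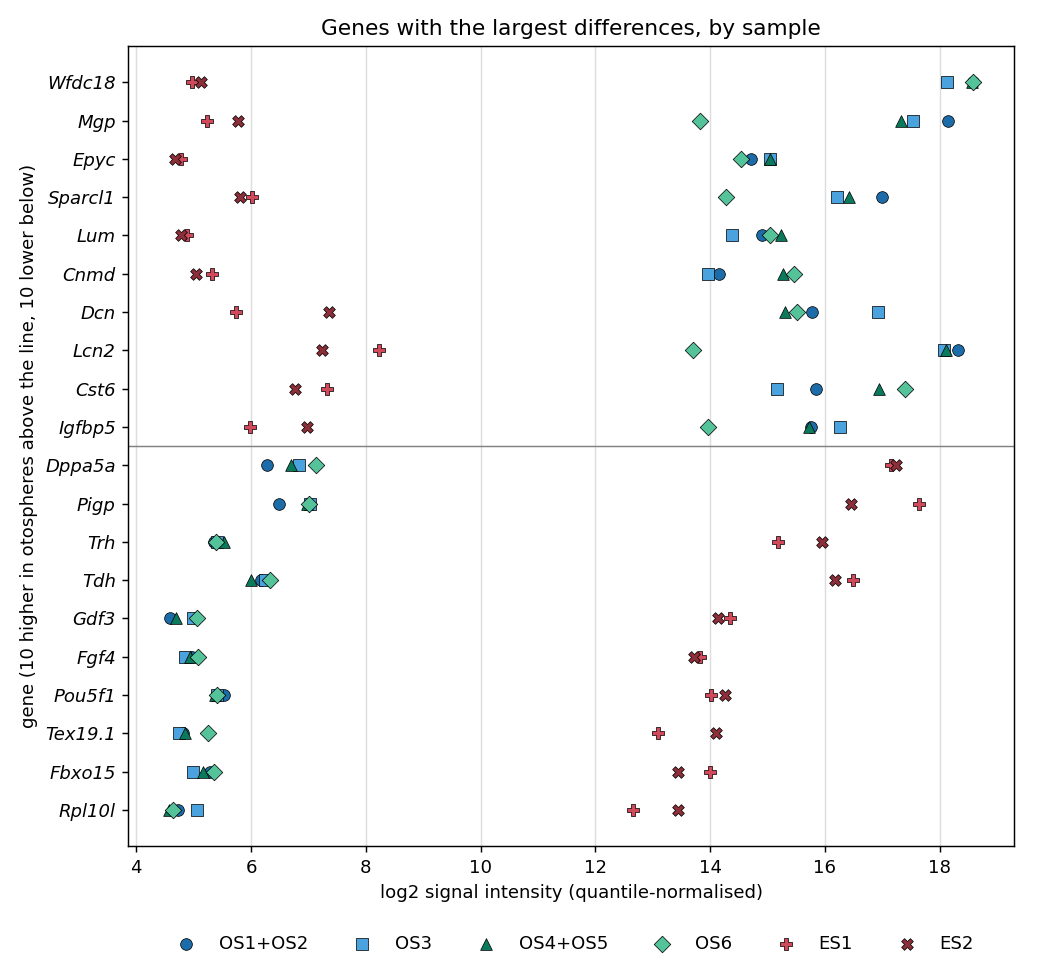
Log2 signal (x axis) of the 10 genes with the largest rises and the 10 with the largest falls from ESCs to otospheres, 1 point for each of the 4 otosphere and 2 ESC samples. The 20 genes were chosen by size of difference among called probes, named by accession, without overlap between the groups. The lack of overlap was thus set by the choice. OS6 stands below the other otospheres for Mgp, Sparcl1, Lcn2 and Igfbp5.

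Genes were then described in lists, which were chosen with earlier results of these data known. Each count of members below is to be read against all genes, of which 18.4% were higher and 20.4% lower in otospheres. A list's count of 2 or fewer members higher or lower is fragile, since 21 of 30 such counts moved when 1 library was left out. The first list was 28 core and naive pluripotency factors, all with a kept probe. In otospheres 25 of the 28 were lower and 0 higher, against 20.4% and 18.4% of all genes, with a median difference of -6.74, where the median over all genes was -0.01. For 9 of the 28 no otosphere array was well above background, while every one of the 28 was well above background on both ESC arrays. Sox2, the factor that pairs with Oct4 on DNA and that also marks the prosensory cells of the cochlea, was 12.67 in ES1 and 12.50 in ES2 and 7.95, 7.67, 8.74 and 8.56 in otospheres, a difference of -4.36 (standard error 0.30, adjusted p = 2.26e-05). Unlike Pou5f1, Sox2 was well above background on all 6 otosphere arrays. Esrrb, an orphan nuclear receptor of the naive state, was 14.91 in ES1 and 14.19 in ES2 and 6.59, 5.71, 6.56 and 6.43 (difference -8.23, adjusted p = 3.36e-05). Nr0b1 (Dax1) and Tcl1 were at least 171-fold and 244-fold lower in otospheres. Dppa2 and Dppa3 were at least 127-fold and 60.6-fold lower, and Dppa4 differed by -6.07 (adjusted p = 4.33e-07). Sall4, a zinc finger factor, differed least among those called, by -1.60 (adjusted p = 0.00653). The call of Sall4 was lost within slide 2 (-1.24, adjusted p = 0.0708).

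The 3 members that did not pass the test were Klf4, Klf5 and, at its brightest probe only, Nanog. Klf4 was 13.12 in ES1 and 11.91 in ES2 and 11.84, 11.21, 13.61 and 13.83 in otospheres (difference 0.11, adjusted p = 0.947), with the samples of slide 2 above both ESC samples and those of slide 1 below ES1. Klf5 was 12.63 in ES1 and 12.69 in ES2 and 11.24, 10.02, 12.02 and 12.45 (difference -1.23, adjusted p = 0.196). Both are Krüppel-like factors that are also used by epithelia. Klf2, the third Krüppel-like factor of the network, was lower in otospheres, at 14.01 in ES1 and 13.83 in ES2 and 8.54, 7.98, 10.20 and 10.91 (difference -4.51, adjusted p = 0.0151). The call of Klf2 was lost without ES1 (-4.43, adjusted p = 0.0767), without ES2 (-4.60, adjusted p = 0.0674) and in the model without empirical Bayes (-4.51, adjusted p = 0.059).

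Nanog was measured by 3 kept probes that disagree. The brightest over all samples, which stands for the gene by the rule used for every gene, was 8.50 in ES1 and 8.26 in ES2 and 9.04, 10.65, 8.82 and 10.75 in otospheres (difference 1.44, adjusted p = 0.105). The other two, named through the study's gene table since their accessions were not matched, differed by -6.05 (adjusted p = 2.44e-05) and by -8.99 (adjusted p = 1.60e-06), from an ESC mean of 11.54 to 5.49 and from 14.68 to 5.69. The array does not show which probe reads the Nanog transcript alone, and Nanog has pseudogenes in the mouse genome. The study placed Nanog among the genes high in ESCs alone, and its immunostaining did not detect NANOG protein in otospheres. Zfp42 (Rex1), a marker of naive ESCs, was 11.19 in ES1 and 14.89 in ES2, and 4.92, 5.41, 5.17 and 5.13 in otospheres. No otosphere array was well above background, and Zfp42 was at least 227-fold lower there (adjusted p = 1.43e-04). The fall was larger on slide 2, with ES2, where the difference minus that of slide 1 was -3.71 (adjusted p = 0.0267 for the interaction).

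The promoters of Nanog and Zfp42 are shown because they hold the octamer that Oct4 reads, ATTTGCAT or, in Nanog, TTTGCAT directly beside a SOX site. They are the 250 bases before the transcription start in the RefSeq annotation of the mouse build GRCm38.p6 (for Nanog, the more upstream of 2 annotated starts), 5′ to 3′ on the gene's strand, with the match in capitals.
Nanog, chr6:122707239-122707488, + strand: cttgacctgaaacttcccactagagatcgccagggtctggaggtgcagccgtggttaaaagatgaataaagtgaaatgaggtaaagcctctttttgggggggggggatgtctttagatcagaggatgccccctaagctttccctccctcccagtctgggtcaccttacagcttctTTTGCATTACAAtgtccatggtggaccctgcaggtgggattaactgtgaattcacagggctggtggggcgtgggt
Zfp42, chr8:43307010-43307259, - strand: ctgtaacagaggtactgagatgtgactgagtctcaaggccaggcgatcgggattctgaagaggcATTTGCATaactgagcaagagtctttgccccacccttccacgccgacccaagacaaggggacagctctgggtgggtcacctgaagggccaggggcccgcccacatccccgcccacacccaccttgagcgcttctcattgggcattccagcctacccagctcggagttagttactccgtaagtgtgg
In Nanog the composite match, TTTGCAT followed by any base and ACAA, spans -75 to -64 from the start, and in Zfp42 the octamer spans -186 to -179. Both strands were searched in the 250 bases before the start and the 50 after it. The octamer stood in 1.63% of the promoters of 12067 tested genes with a single annotated promoter, in 2.03% of those lower and 2.04% of those higher in otospheres, and in 4.38% (6 of 137) of those lower by more than 16-fold against 3.59% (7 of 195) of those higher by as much. The composite site was found in 4 of the 12067 promoters, 1 of them of a gene that was lower in otospheres. A match of letters is a description and does not show that a factor binds.

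The LIF, Nodal and FGF ligands and receptors that ESCs use were mostly lower in otospheres. Of 23 genes, 12 were lower and 2 higher, with a median difference of -2.13. Nodal and its antagonists Lefty1 and Lefty2, which are also targets of the pathway, were at -5.82, -6.80 and -5.61 (adjusted p = 4.47e-06, 1.70e-05 and 1.01e-05). Nodal was 13.16 in ES1 and 12.22 in ES2 and between 6.39 and 7.11 in the 4 otosphere samples, with no overlap between the groups. Tdgf1 (Cripto), the Nodal co-receptor, differed by -3.73 (adjusted p = 0.0146) at its brightest probe. Bmp4 was at -2.47 and Id1, a target of BMP signalling, at -2.24 (adjusted p = 1.71e-04 and 0.00505). The feedback targets of FGF signalling Spry2, Etv4 and Etv5 were lower, at -2.26, -2.13 and -1.75 (adjusted p = 3.25e-04, 0.0105 and 0.00181). With median scaling, or with the processed signal scaled to its 75th percentile, 0 were higher. The 2 genes that were higher were Fgfr1, at 1.22 (adjusted p = 0.00188), the receptor for the bFGF in the otosphere medium, and Stat3, the transcription factor downstream of LIF, at 1.33 (adjusted p = 0.0158). The LIF receptor Lifr was 10.09 in ES1 and 11.04 in ES2 and 10.86, 10.95, 10.93 and 10.55 in otospheres, with a difference of 0.26 (adjusted p = 0.568). The call of Tdgf1 was lost without ES1 (-2.44, adjusted p = 0.136), in the model without empirical Bayes (-3.73, adjusted p = 0.057), with the replicate block (-3.96, adjusted p = 0.0579) and within slide 2 (-2.75, adjusted p = 0.159). The call of Id1 was lost within slide 1 (-1.48, adjusted p = 0.081). The call of Etv4 was lost without ES1 (-1.90, adjusted p = 0.0749). The call of Fgfr1 was lost with the processed signal scaled to its 75th percentile (0.66, adjusted p = 0.125) and with median scaling (0.77, adjusted p = 0.156). The call of Stat3 was lost without ES1 (1.38, adjusted p = 0.062), without ES2 (1.28, adjusted p = 0.0793), with the processed signal scaled to its 75th percentile (0.86, adjusted p = 0.134), with median scaling (0.97, adjusted p = 0.165) and within slide 2 (0.97, adjusted p = 0.13).

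Genes of the primed epiblast and of the first lineages were lower in otospheres for 12 of 16 measured members and higher for 1, with a median of -2.39. Dnmt3b, the de novo DNA methyltransferase of the early embryo, was 14.42 in ES1 and 15.87 in ES2 and 9.02, 8.26, 8.54 and 8.31 (difference -6.61, adjusted p = 7.63e-06). Pou3f1 (Oct6) and Fgf5, markers of primed cells, were at -4.57 and -2.54 (adjusted p = 2.91e-05 and 0.00571). Otx2, an anterior epiblast factor that is also used in the developing ear, was 12.74 in ES1 and 13.38 in ES2 and 9.21, 9.41, 10.82 and 11.66, with the otospheres of slide 2 nearer to the ESCs (difference -2.78, adjusted p = 0.01). The lineage factors Eomes, Gata4 and Hand1 were lower in otospheres. Hand1 was at least 6.87-fold lower, and Eomes and Gata4 differed by -2.74 and -2.75 (adjusted p = 6.34e-05 and 7.44e-05). The gene that was higher was Dnmt3a, the other de novo methyltransferase, at 10.15 in ES1 and 8.97 in ES2 and 11.56, 11.88, 11.81 and 11.38 (difference 2.10, adjusted p = 0.00244). The call of Fgf5 was lost without ES2 (-2.21, adjusted p = 0.0501) and within slide 1 (-1.52, adjusted p = 0.0763). The call of Otx2 was lost without ES2 (-2.46, adjusted p = 0.0744).

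Germ line genes were lower in otospheres for 16 of 24 and higher for 0, with a median of -2.23. The X-linked homeobox gene Rhox5 was 12.63 in ES1 and 14.02 in ES2 and 5.90, 5.02, 5.41 and 5.08 (difference -7.97, adjusted p = 5.41e-06), and Rhox6 was at least 61-fold lower. Mael and Ddx4 (Vasa), of the piRNA pathway, were at least 70.6-fold and 16.2-fold lower, and Syce1 and Stag3, proteins of meiotic chromosomes, were at -5.52 and -4.87 (adjusted p = 5.58e-06 and 5.46e-06). Of 11 measured genes of the 2-cell stage embryo, which flicker in rare ESCs, 6 were lower and 1 higher, with a median of -0.97. Zscan4f was 8.22 in ES1 and 11.15 in ES2 and 4.82, 4.55, 4.76 and 4.68 in otospheres, at least 26.5-fold lower (adjusted p = 4.92e-04); the Zscan4 genes are near-identical copies and their probes cannot separate them.

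Lin28a and Lin28b, which block the maturation of let-7 microRNAs, were both lower in otospheres. Lin28a was 13.68 in ES1 and 13.70 in ES2 and 7.98, 7.82, 7.93 and 8.33 (difference -5.67, adjusted p = 5.61e-07), and Lin28b 9.97 in ES1 and 12.16 in ES2 and 5.91, 4.99, 6.14 and 6.07 (difference -5.29, adjusted p = 2.65e-04). Of 15 genes of this axis, 9 were lower and 1 higher, against 20.4% and 18.4% of all genes. Among the known let-7 targets, Trim71, Mycn, Igf2bp1 and Arid3b were lower, at -7.17, -5.62, -5.00 and -3.58 (adjusted p = 1.19e-05, 2.41e-05, 2.65e-05 and 2.83e-04). Hmga2, another target, was 9.11 in ES1 and 9.99 in ES2 and 11.48, 11.10, 9.67 and 9.67 in otospheres, a difference of 0.93 that did not pass the test (adjusted p = 0.253), and Ccnd2, cyclin D2, was higher in otospheres at 3.03 (adjusted p = 6.13e-04). Of the genes of this axis that passed the test, Ccnd2 alone was higher.

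Of 13 enzymes that place or remove DNA methylation, 7 were lower and 2 higher in otospheres, against 20.4% and 18.4% of all genes. Dnmt3l, the inactive partner of the de novo enzymes, was 14.49 in ES1 and 14.58 in ES2 and 8.85, 9.25, 6.85 and 6.16 (difference -6.76, adjusted p = 3.00e-04), Tet1, which oxidises methylcytosine, was at -4.01 and Uhrf1, which brings Dnmt1 to replicating DNA, at -3.22 (adjusted p = 4.42e-05 and 0.00867). Of 26 Polycomb, chromatin remodelling and histone modifying factors, 11 were lower and 4 higher, against 20.4% and 18.4% of all genes. The share higher was thus below that of all genes. Among the chromodomain subunits of Polycomb repressive complex 1, Cbx7 was at least 6.87-fold lower and Cbx2 was lower at -1.89 (adjusted p = 6.67e-04). Bmi1, a ring finger subunit of the same complex, was higher at 7.23 in ES1 and 8.49 in ES2 and 10.60, 10.77, 10.69 and 10.40 (difference 2.76, adjusted p = 2.93e-04). Among the subunits of the BAF remodelling complex, Smarca2 (Brm), an ATPase, and Smarcc2 were higher in otospheres at 3.48 and 1.499 (adjusted p = 7.18e-05 and 6.10e-04), Smarcd1 was lower at -2.44 (adjusted p = 4.34e-04), and the other ATPase, Smarca4 (Brg1), was 14.77 in ES1 and 14.52 in ES2 and 14.51, 14.04, 14.35 and 14.07 (adjusted p = 0.162). Smarcc1 has probes that disagree: the brightest did not pass the test and 2 others were lower in otospheres. Jarid2, Epop and Trim28, the last a co-repressor that silences retroviral elements in ESCs, were lower at -2.95, -3.89 and -2.76 (adjusted p = 2.33e-04, 0.00111 and 1.87e-05). The call of Uhrf1 was lost without ES1 (-3.14, adjusted p = 0.0516) and within slide 1 (-2.26, adjusted p = 0.0513).

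**Figure D3:**
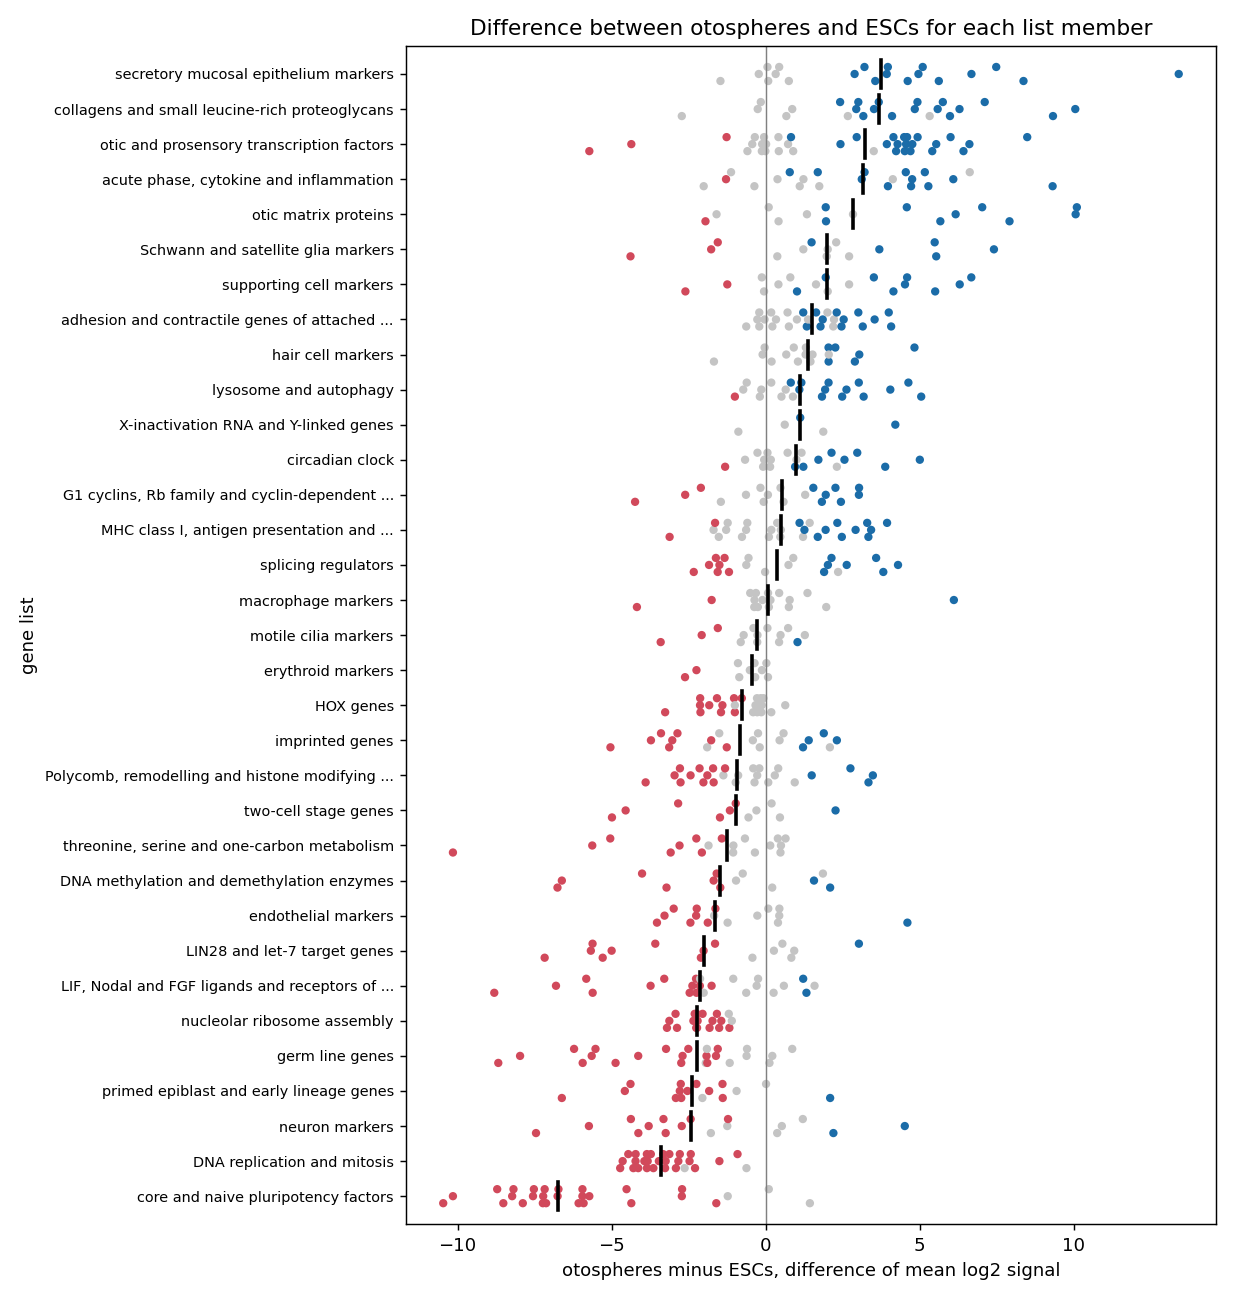
Difference between the mean log2 signal of otospheres and ESCs (x axis) for each measured member of 33 gene lists (rows, ordered by median). The lists were chosen with earlier results of these data known, so their order is a description. Blue points are higher and red points lower in otospheres at an adjusted p under 0.05, grey points are not called and black bars are medians, which run from -6.74 for pluripotency factors to 3.75 for markers of secretory mucosal epithelium.

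DNA replication and mitosis genes were lower in otospheres for 26 of 28 members and higher for 0, with a median difference of -3.40, and within slide 1 the number lower was 17. Mcm5, a subunit of the replicative helicase, was 14.66 in ES1 and 14.77 in ES2 and 11.58, 10.21, 9.76 and 8.42 in otospheres (difference -4.72, standard error 0.68, adjusted p = 9.48e-04). Mcm10 and Cdc6, which load and start the helicase, were at -4.46 and -3.85 (adjusted p = 0.00109 and 0.0013). Ccnb1, cyclin B1, was 14.13 in ES1 and 14.37 in ES2 and 11.79, 10.85, 9.42 and 7.76 (difference -4.29, adjusted p = 0.0071), and Aurka, a kinase of the mitotic spindle, was at -4.22 (adjusted p = 0.00226). The otosphere samples were ordered alike across the list: OS1+OS2 was the highest of the 4 for 28 of 28 members and OS6 the lowest for 27 of 28. The median difference from the ESC mean was -1.97 in OS1+OS2, -2.94 in OS3, -3.81 in OS4+OS5 and -4.97 in OS6, so each otosphere sample lay below the ESCs. Mki67, the proliferation antigen, was 10.21 in ES1 and 12.94 in ES2, a wider gap than for other members, and 12.99, 12.07, 10.55 and 8.21 in otospheres (difference -0.62, adjusted p = 0.759). The comparison does not tell fewer dividing cells from less of these transcripts in each cell, which holds for every bulk signal here.

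The promoter of Mcm5 is shown because it holds the E2F site TTTCGCGC and the NF-Y box CCAAT, in capitals (RefSeq, GRCm38.p6, 250 bases before the start, 5′ to 3′).
Mcm5, chr8:75109259-75109508, + strand: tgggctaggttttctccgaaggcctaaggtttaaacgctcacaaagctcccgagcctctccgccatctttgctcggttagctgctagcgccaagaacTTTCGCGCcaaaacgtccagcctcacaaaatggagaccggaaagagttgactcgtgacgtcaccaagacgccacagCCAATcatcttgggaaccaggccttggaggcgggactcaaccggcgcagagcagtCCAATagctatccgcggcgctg
The E2F match spans -153 to -146 and the CCAAT boxes -77 to -73 and -22 to -18. Across the 12067 genes with a single promoter, TTTCGCGC stood on either strand in 0.522% of all, in 1.23% (31 of 2511) of those lower and in 0.291% (6 of 2059) of those higher in otospheres. CCAAT stood in 39.2% of all, 42.9% of those lower and 36.1% of those higher. Of the other motifs searched, the E-box CACGTG stood in 8.72% of all, 11.4% of those lower and 9.03% of those higher. The AP-1 site TGANTCA stood in 6.21%, 4.22% and 6.31%, and the TEAD site GGAATG in 12.7%, in 277 of 2511 and in 12.6%, in the same order. Genes that were called in either direction had promoters richer in CpG than all tested genes, with a median observed over expected CpG ratio of 0.762 for genes lower and 0.718 for genes higher in otospheres against 0.667 in all. For changes of more than 16-fold it was 0.559 and 0.473. These shares were not tested.

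The cyclins and inhibitors of the G1 phase did not follow the replication genes. Of 18 measured, 7 were higher and 3 lower, and without ES2 the number higher was 4. Cyclin D1 (Ccnd1) was 12.74 in ES1 and 12.47 in ES2 and 15.12, 14.43, 15.12 and 14.85 in otospheres (difference 2.27, adjusted p = 1.50e-04), whereas cyclin E1 (Ccne1) was 14.44 in ES1 and 15.25 in ES2 and 11.60, 10.82, 10.33 and 9.67 (difference -4.24, adjusted p = 2.52e-04) and its kinase Cdk2 was lower at -2.61 (adjusted p = 0.00198). The inhibitors Cdkn1a (p21), Cdkn1b (p27) and Cdkn2b (p15) were higher, at 2.45, 1.95 and 3.04 (adjusted p = 0.0112, 8.38e-04 and 0.0063), as were the pocket proteins Rb1 and Rbl2, at 1.55 and 1.83 (adjusted p = 0.00851 and 5.36e-04). Cdkn2a, the locus of p16 and ARF, was 11.24 in ES1 and 10.68 in ES2, and it ran from 12.06 in OS3 to 5.94 in OS6, with 11.80, 12.06, 8.23 and 5.94 in all, so that otosphere samples lay on both sides of the ESCs. The call of Cdkn1a was lost without ES2 (1.75, adjusted p = 0.104) and within slide 1 (1.097, adjusted p = 0.16). The call of Cdkn2b was lost without ES2 (2.16, adjusted p = 0.061). The call of Rb1 was lost without ES2 (1.35, adjusted p = 0.0653).

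Genes of ribosome assembly in the nucleolus were lower in 18 of 20 cases and higher in 0, with a median of -2.22 and a narrow range, from -3.20 to -1.10. Nolc1 and Rrp12 were at -2.88 and -3.12 (adjusted p = 4.52e-05 and 4.51e-05), Polr1a, the largest subunit of RNA polymerase I, at -1.72 (adjusted p = 1.83e-04), and Nop2, an rRNA methyltransferase, was 14.53 in ES1 and 14.63 in ES2 and 12.54, 11.87, 12.29 and 12.41. ES2 exceeded ES1 for 19 of the 20 genes, by a median of 0.58, against 45.8% of all genes. In threonine, serine and folate-linked metabolism 8 of 18 genes were lower and 0 higher (2 higher without ES2 and within either slide). Beside Tdh, the glycine cleavage enzyme Gldc was 13.12 in ES1 and 13.36 in ES2 and 8.19, 8.33, 7.38 and 6.54 (difference -5.63, adjusted p = 4.51e-05), and Shmt1, which is cytosolic, was at -5.04 (adjusted p = 1.69e-04). The enzymes that make serine differed among otospheres: Phgdh was 13.42, 11.58, 14.83 and 15.20 against 13.55 in ES1 and 13.66 in ES2, lowest in OS3 and highest in OS6, and Psat1 was 13.91, 12.66, 15.45 and 15.64 against 14.09 in ES1 and 13.74 in ES2; neither passed the test (adjusted p = 0.922 and 0.67).

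**Figure D4:**
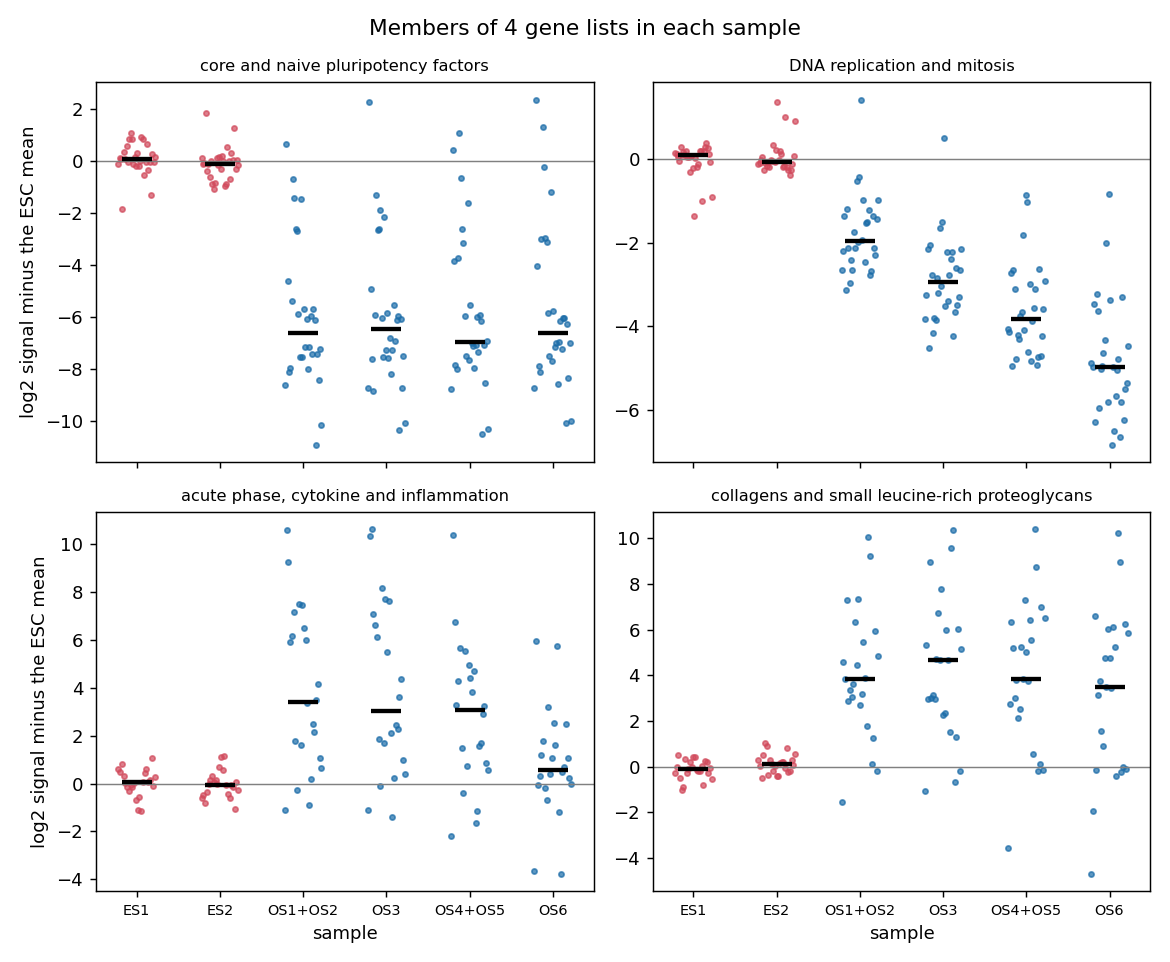
Log2 signal of each member of 4 gene lists in each sample, minus the member's mean over ES1 and ES2 (y axis), 1 point a gene, with black bars for the median of the list. The medians of replication genes run from -1.97 in OS1+OS2 to -4.97 in OS6, those of pluripotency factors from -6.96 to -6.46, and that of acute phase genes is 0.59 in OS6 and 3.04 or more in the other otospheres.

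Transcription factors of the otic placode and of the prosensory domain were higher in otospheres for 20 of 36 and lower for 3, with a median of 3.24, against 18.4% and 20.4% of all genes. Nr2f1 (COUP-TFI), an orphan nuclear receptor that is needed for the cochlear duct, had the largest difference, from 6.70 in ES1 and 7.48 in ES2 to 15.27, 14.73, 16.21 and 16.13 in otospheres (8.50, standard error 0.43, adjusted p = 3.97e-06). The homeobox gene Six2 was at 6.43, and Eya4, a transcriptional cofactor mutated in hereditary deafness, at 4.50 (adjusted p = 2.33e-05 and 9.59e-05). Gata3, which is needed for the prosensory epithelium, was 8.28 in ES1 and 7.33 in ES2 and 11.69, 11.28, 12.45 and 12.41 (difference 4.15, adjusted p = 9.48e-05). Tbx2, which was not well above background on either ESC array, was at least 64.3-fold higher. Isl1, Lmx1a, Irx3, Sox9 and Sox10 were at 4.52, 4.29, 4.71, 4.60 and 5.54 (adjusted p = 2.74e-05, 2.08e-04, 5.88e-05, 7.09e-05 and 5.65e-05). The Nfi family, which acts in late progenitors, was higher as well, Nfib at 6.91 in ES1 and 8.34 in ES2 and 14.38, 13.84, 14.67 and 14.10 (difference 6.62, adjusted p = 8.20e-06), Nfix at 4.94 (adjusted p = 1.57e-06) and Nfia at least 17.1-fold.

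Not all factors of the early placode were raised. Eya1 was bright in both groups, at 14.92 in ES1 and 15.03 in ES2 and 14.79, 14.83, 14.47 and 14.42 (adjusted p = 0.2), and Pax2 was 6.33 in ES1 and 6.01 in ES2 and 5.72, 5.50, 5.84 and 5.88 (adjusted p = 0.133). The 3 lower members were Sox2, described above, Pax8 at -1.27 (adjusted p = 0.0288) and Gbx2, which ESCs also use and which was at least 52.1-fold lower. Of 23 measured HOX genes, which are silent in the head ectoderm that gives rise to the ear, 11 were lower and 0 higher, and the median was -0.77. No otosphere array was well above background for 11 of the 23. The call of Pax8 was lost without ES2 (-0.58, adjusted p = 0.221), without OS1+OS2 (-1.26, adjusted p = 0.0555), without OS3 (-1.15, adjusted p = 0.0604), without OS4+OS5 (-1.24, adjusted p = 0.0648), in the model without empirical Bayes (-1.27, adjusted p = 0.072), in a fit of otospheres and ESCs alone (-1.27, adjusted p = 0.0682), with the replicate block (-1.35, adjusted p = 0.0609) and within slide 1 (-0.76, adjusted p = 0.153).

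Matrix genes of the inner ear were higher in 9 of 15 cases and lower in 1. Tecta, alpha-tectorin of the tectorial membrane, was 12.52, 10.80, 12.70 and 12.26 in otospheres and not well above background in ESCs, at least 103-fold higher (adjusted p = 2.02e-05). Otol1, an otoconia and otolith scaffold protein, was at least 53-fold higher, and Otor (otoraplin) at least 236-fold, with 16.10 in OS1+OS2 and 8.11 in OS6 at the ends. Oc90, the main otoconial protein, was 9.19, 5.92, 10.61 and 9.96 against 5.35 in ES1 and 6.82 in ES2 and did not pass the test (adjusted p = 0.0928). Collagens and leucine-rich proteoglycans were higher in 16 of 23 and lower in 0, with a median of 3.68. Col9a1 was at least 130-fold and Ogn at least 70.9-fold higher, and the cartilage collagen Col11a1 was 5.56 in ES1 and 5.88 in ES2 and 11.18, 11.69, 12.15 and 11.81 (difference 5.99, adjusted p = 2.02e-06). Col6a1 was at 5.76 and the basement membrane collagen Col4a2 at 3.52 (adjusted p = 6.50e-05 and 4.92e-04). The fibrillar collagens of fibroblasts differed among otospheres: Col3a1 was 13.96, 15.59, 11.82 and 6.51 against 6.12 in ES1 and 7.16 in ES2, at the ESC level in OS6 alone, and Col1a2 was 15.17, 15.89, 13.30 and 8.61 against 10.55 in ES1 and 10.59 in ES2 (adjusted p = 0.085 and 0.288). Without OS6 the difference for Col3a1 was 7.15 (adjusted p = 0.00107). The call of Otor was lost without ES1 (7.74, adjusted p = 0.0582) and within slide 2 (5.75, adjusted p = 0.152).

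Of 28 genes of attached epithelial and mesenchymal cells, 13 were higher and 0 lower, and the number higher was 7 without ES2, 6 with median scaling and 8 with the processed signal scaled to its 75th percentile. The cadherin Cdh1, which both ESCs and epithelia carry, was 13.21 in ES1 and 13.07 in ES2 and 13.15, 12.38, 13.05 and 13.17 (difference -0.20, adjusted p = 0.646), and Epcam, another epithelial adhesion protein, was higher at 1.22 (adjusted p = 0.00849). Anxa1 was 10.98 in ES1 and 11.46 in ES2 and 15.38, 14.67, 15.70 and 15.14 (adjusted p = 2.33e-05), the integrin Itgav was at 2.31 and Ankrd1, a target of the YAP coactivator, at 3.54 (adjusted p = 5.17e-04 and 2.52e-04). Cnn1 (calponin), a smooth muscle gene, went opposite ways on the slides: it was 12.69 in ES1 against 9.41 and 8.79 in OS1+OS2 and OS3, and 10.89 in ES2 against 13.15 and 13.30 in OS4+OS5 and OS6, a slide difference of 5.93 (adjusted p = 0.0243). The call of Epcam was lost without ES2 (0.95, adjusted p = 0.0731), with the processed signal scaled to its 75th percentile (0.95, adjusted p = 0.067), with median scaling (1.03, adjusted p = 0.148), with the replicate block (1.16, adjusted p = 0.0757) and within slide 1 (0.82, adjusted p = 0.109).

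Markers of secretory mucosal epithelium had the highest median of the 33 lists at the measured signals, 3.75 against 3.68 for collagens and proteoglycans, with 13 of 20 genes higher and 0 lower. With genes that have only a bound set at it, the medians were 3.75 and 3.89, so that of collagens and proteoglycans was the higher. The lists were chosen with earlier results of these data known, so the rank of a median is a description. Members Wfdc18, Slpi, Msln and Sftpd are among the top genes that the study gave for otospheres alone on these arrays. Slpi, a secreted protease inhibitor, was 6.65 in ES1 and 5.41 in ES2 and 15.58, 14.57, 14.21 and 13.26 (difference 8.38, adjusted p = 2.80e-05). Sftpd, surfactant protein D, was at 7.49, Msln, mesothelin, at 6.69, the water channel Aqp5 at 4.96 and Ltf, lactoferrin, at 5.10 (adjusted p = 0.00189, 4.08e-05, 2.54e-04 and 5.05e-05). Msln was 10.73 in ES1 and 10.03 in ES2 and 17.16, 16.47, 17.35 and 17.29. The keratins Krt7 and Krt8 of simple epithelia were at 4.62 and 3.94 (adjusted p = 3.79e-04 and 0.00235). The gel-forming mucins Muc5ac and Muc5b did not pass the test, with differences of -0.22 and 0.33 (adjusted p = 0.56 and 0.249). The list is named for where these genes are best known, and the part of mucosal cells of the middle ear or other tissue in the otospheres was not tested.

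Acute phase, cytokine and inflammation genes were higher in 12 of 22 and lower in 1, with a median of 3.17. The number higher was 4 without ES1, 5 without ES2, 7 without OS1+OS2 and 6 within slide 2, and it was 7 in a fit of otospheres and ESCs alone and 5 without empirical Bayes. Beside Lcn2, the chemokine Cxcl1 was 5.22 in ES1 and 5.50 in ES2, not well above background, and 12.87, 13.51, 10.88 and 8.57 in otospheres, at least 67.5-fold higher (adjusted p = 0.00763). Complement C3 was 9.05 in ES1 and 8.99 in ES2 and 15.19, 15.62, 13.30 and 10.19 (difference 4.55, adjusted p = 0.0259) and complement factor B (Cfb) at least 29.8-fold higher (adjusted p = 0.012). OS6 was the lowest otosphere sample for 20 of the 22 genes; the median difference from the ESC mean was 0.59 in OS6 against 3.41, 3.04 and 3.06 in OS1+OS2, OS3 and OS4+OS5. For the serum amyloid gene Saa3, which was 15.88, 17.27, 13.38 and 6.57 against 7.45 in ES1 and 5.84 in ES2, the difference of 6.63 missed the threshold (adjusted p = 0.0773), and without OS6 it was 8.86 (adjusted p = 0.000667). The factors Cebpb and Cebpd, which drive acute phase genes, were higher at 3.12 and 3.22 (adjusted p = 7.86e-04 and 0.0358), Il6 was 6.84, 6.95, 6.55 and 4.88 against 4.78 in ES1 and 5.37 in ES2 (adjusted p = 0.128), and Nos2 was the member that was lower, at -1.28 (adjusted p = 0.0211). The call of C3 was lost without ES1 (4.59, adjusted p = 0.103), without ES2 (4.52, adjusted p = 0.107), without OS1+OS2 (4.01, adjusted p = 0.054), without OS4+OS5 (4.65, adjusted p = 0.0501), in the model without empirical Bayes (4.55, adjusted p = 0.0841), in a fit of otospheres and ESCs alone (4.55, adjusted p = 0.0665) and within slide 2 (2.76, adjusted p = 0.162). The call of Cfb was lost without ES1 (5.04, adjusted p = 0.0664), without ES2 (5.30, adjusted p = 0.0556), in the model without empirical Bayes (5.17, adjusted p = 0.051) and within slide 2 (3.58, adjusted p = 0.144). The call of Cebpd was lost without CSE1 (3.21, adjusted p = 0.0555), without ES2 (2.14, adjusted p = 0.256), without OS1+OS2 (2.90, adjusted p = 0.076), without OS3 (2.83, adjusted p = 0.0732), without OS4+OS5 (3.21, adjusted p = 0.0717), with the processed signal scaled to its 75th percentile (2.81, adjusted p = 0.067), in the model without empirical Bayes (3.21, adjusted p = 0.102) and in a fit of otospheres and ESCs alone (3.21, adjusted p = 0.0674). The call of Nos2 was lost without ES1 (-1.21, adjusted p = 0.104), without ES2 (-1.36, adjusted p = 0.0713), without OS4+OS5 (-1.16, adjusted p = 0.0531), in the model without empirical Bayes (-1.28, adjusted p = 0.0567), with the replicate block (-1.098, adjusted p = 0.119), within slide 1 (-1.22, adjusted p = 0.115) and within slide 2 (-1.35, adjusted p = 0.0846).

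The promoter of Cxcl1 is shown because it holds an NF-kB site, in capitals (RefSeq, GRCm38.p6, 250 bases before the start, 5′ to 3′).
Cxcl1, chr5:90890995-90891244, + strand: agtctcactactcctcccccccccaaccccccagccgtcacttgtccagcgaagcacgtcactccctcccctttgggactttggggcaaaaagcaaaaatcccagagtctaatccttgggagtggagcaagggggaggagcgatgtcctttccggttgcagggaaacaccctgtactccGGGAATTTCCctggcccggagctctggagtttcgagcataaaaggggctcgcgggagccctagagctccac
The match, GGGA followed by any base and TTTCC, spans -71 to -62. Such a site stood in 0.398% of the 12067 promoters, in 0.583% of those of genes higher and 0.358% of those of genes lower in otospheres, and the shares were not tested. Of 27 genes of antigen presentation and the interferon response, 11 were higher and 2 lower, and the number lower was 0 without ES1, 4 without ES2, 6 without OS3, 4 with median scaling or the processed signal scaled to its 75th percentile, and 6 with every array as a separate sample. The class I molecule H2-D1 and its partner B2m were higher, B2m at 12.10 in ES1 and 11.65 in ES2 and 16.15, 16.21, 15.64 and 15.28 (differences 3.43 and 3.95, adjusted p = 4.23e-04 and 2.69e-05). Of all genes 18.4% were higher and 20.4% lower, so the share lower in this list was below that of all genes. Interferon response genes were among those called in either direction. Ifit1 was 7.75, 8.04, 9.29 and 9.85 in otospheres and not well above background in ESCs (at least 9.45-fold, adjusted p = 0.00202), Irf1 was at -1.52 and not called (adjusted p = 0.0665), and Oas1a and Gbp2 were lower at -1.64 and -3.12 (adjusted p = 0.0144 and 0.0222). The RNA sensors Ifih1 and Tlr3 were higher, Ifih1 at 3.34 (adjusted p = 2.90e-05) and Tlr3 at least 5.25-fold. Class I genes are also polymorphic between mouse strains, and the groups differ in strain. The call of Oas1a was lost without ES1 (-1.51, adjusted p = 0.0859), with the replicate block (-1.14, adjusted p = 0.155), within slide 1 (-1.57, adjusted p = 0.136) and within slide 2 (-1.71, adjusted p = 0.105). The call of Gbp2 was lost without ES1 (-1.99, adjusted p = 0.191), in the model without empirical Bayes (-3.12, adjusted p = 0.0743) and in a fit of otospheres and ESCs alone (-3.12, adjusted p = 0.0572).

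Lysosome and autophagy genes were higher in 13 of 22 and lower in 1, and with the processed signal scaled to its 75th percentile the number higher was 8. Lamp2, a lysosomal membrane protein, was 9.40 in ES1 and 10.19 in ES2 and 13.84, 14.36, 13.84 and 13.36 (difference 4.05, adjusted p = 3.45e-05). The proteases Ctsd and Ctsh were at 3.03 and 4.64 (adjusted p = 2.79e-05 and 6.57e-05). The gene that was lower was Tfe3, a transcription factor that activates lysosomal genes, at -0.996 (adjusted p = 0.00872). Of 20 clock genes 8 were higher and 1 lower, against 18.4% and 20.4% of all genes. The nuclear receptor Rora was at least 14.6-fold higher, Clock itself was at 2.56 (adjusted p = 0.00308), and its partner Arntl (Bmal1) was 10.29 in ES1 and 9.66 in ES2 and 9.84, 10.20, 9.58 and 9.24 (adjusted p = 0.556). Cry1, a repressor of the clock, was the member that was lower, at -1.31 (adjusted p = 0.00134). The call of Tfe3 was lost without ES2 (-0.71, adjusted p = 0.0715), with the replicate block (-0.96, adjusted p = 0.0704) and within slide 1 (-0.77, adjusted p = 0.113).

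Splicing regulators went both ways, 7 of 20 higher and 7 lower, and without ES2 the number lower was 4. The Muscleblind genes Mbnl1 and Mbnl2, which repress exons typical of ESCs, were higher, Mbnl2 at 8.24 in ES1 and 10.12 in ES2 and 12.99, 13.11, 12.96 and 12.97 (differences 3.59 and 3.82, adjusted p = 0.0013 and 4.56e-04), as was Celf2 at 4.30 (adjusted p = 1.55e-05). Ptbp1, Srsf2 and Rbpms were lower at -1.498, -1.61 and -2.33 (adjusted p = 2.96e-04, 6.36e-04 and 2.12e-04). The epithelial splicing factors Esrp1 and Esrp2 were above the floor in both groups and did not pass the test (adjusted p = 0.101 and 0.212).

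Xist, the RNA that coats the inactive X chromosome, was not well above background on either ESC array, at 5.22 in ES1 and 4.89 in ES2, and was 8.79, 10.83, 8.74 and 8.73 in otospheres, at least 14.8-fold higher (adjusted p = 0.00192). Of the Y-linked genes, Kdm5d was at least 1.39-fold higher in otospheres, and Ddx3y was 5.20 in ES1 and 9.44 in ES2, against 8.85, 9.35, 9.41 and 9.16 in otospheres (slide difference -4.06, adjusted p = 0.0412). Both kinds of transcript were thus present in the otospheres, which were made from pools of mice. Of 20 measured imprinted genes 8 were lower and 4 higher, against 20.4% and 18.4% of all genes, and with median scaling 2 were higher. Phlda2 was 11.01 in ES1 and 11.03 in ES2 and 6.32, 5.48, 6.08 and 6.07 (difference -5.04, adjusted p = 3.87e-06), Peg10, Snrpn and Dlk1 were at -3.03, -3.39 and -3.72 (adjusted p = 8.54e-04, 7.58e-04 and 0.00103), and Igf2r, Gnas and Plagl1 were higher at 2.32, 1.89 and 1.40 (adjusted p = 4.96e-05, 6.06e-04 and 0.00323). The call of Kdm5d was lost without ES1 (1.12, adjusted p = 0.055), without ES2 (1.13, adjusted p = 0.0536), with the processed signal scaled to its 75th percentile (2.29, adjusted p = 0.0625), with median scaling (0.93, adjusted p = 0.0617), with the replicate block (0.86, adjusted p = 0.129), within slide 1 (1.13, adjusted p = 0.13) and within slide 2 (1.12, adjusted p = 0.129). The call of Gnas was lost with median scaling (1.20, adjusted p = 0.0546). The call of Plagl1 was lost within slide 2 (1.31, adjusted p = 0.0566).

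By chromosome, the median difference of bright genes was within 0.2 of 0 on all chromosomes but 8 and Y, the latter with 2 bright genes. On chromosome 8, 685 bright genes had a median of -0.31. It was -0.27 against ES1 and -0.32 against ES2, so it was found with both ESC lines, and 26.6% of the genes of chromosome 8 were lower and 13.9% higher in otospheres against 20.4% and 18.4% of all. For chromosome 11 the median was -0.19 (1096 genes), with -0.296 against ES1 and -0.156 against ES2. On it 26.4% of the genes were lower and 14.7% higher, near the shares of chromosome 8. Bright genes of the X chromosome had a median of 0.28 against ES1 and -0.08 against ES2. Copy number was not measured, and its part in these medians was not tested.

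Markers of the cells that a cochlear preparation can hold were looked at in the same way. For 18 hair cell markers, 6 were higher and 0 lower, against 18.4% and 20.4% of all genes, with a median of 1.38. The transcription factor Gfi1 was 7.42, 6.44, 9.14 and 9.69 in otospheres and not well above background in ESCs, at least 6.86-fold higher (adjusted p = 0.0182), and Ocm, oncomodulin of outer hair cells, was 6.54 in ES1 and 6.53 in ES2 and 9.97, 11.58, 11.91 and 12.02 (difference 4.84, adjusted p = 6.18e-04). The defining factor Atoh1 did not pass the test, at 5.59, 4.88, 6.75 and 7.36 against 5.09 in ES1 and 5.09 in ES2 (adjusted p = 0.243), and Myo7a, the hair cell myosin, was 7.37, 7.22, 8.50 and 8.92 against 8.08 in ES1 and 7.52 in ES2 (adjusted p = 0.805). OS3 was the lowest otosphere sample for 16 of the 18 markers and OS6 the highest for 11. The median difference from the ESC mean was 0.743 in OS1+OS2, 0.173 in OS3, 2.03 in OS4+OS5 and 2.28 in OS6. The number higher was 5 within slide 1 and 15 within slide 2, and 10 without OS3. Supporting cell markers were higher in 9 of 18 and lower in 2. The connexin Gjb2, which is mutated in common hereditary deafness, was 6.56 in ES1 and 6.40 in ES2 and 13.05, 13.26, 13.42 and 12.90 in otospheres (difference 6.68, standard error 0.20, adjusted p = 2.62e-07). Its partner Gjb6 was at least 14.5-fold and Lgr5, a gene of the Wnt pathway, at least 8.89-fold higher, and S100a1 was at 6.30 (adjusted p = 8.00e-05). The Notch target Hes5 and the Notch modifier Lfng were lower than in ESCs, at -2.60 and -1.24 (adjusted p = 0.00197 and 0.0356). The call of Gfi1 was lost without ES1 (3.18, adjusted p = 0.0707), without ES2 (2.91, adjusted p = 0.0933), in the model without empirical Bayes (3.04, adjusted p = 0.0649) and in a fit of otospheres and ESCs alone (3.04, adjusted p = 0.0516). The call of Lfng was lost without CSE1 (-1.24, adjusted p = 0.0572), without ES1 (-1.17, adjusted p = 0.147), without ES2 (-1.31, adjusted p = 0.105), without OS1+OS2 (-1.23, adjusted p = 0.0673), without OS3 (-1.20, adjusted p = 0.0684), without OS6 (-1.11, adjusted p = 0.0729), in the model without empirical Bayes (-1.24, adjusted p = 0.0846), with median scaling (-1.100, adjusted p = 0.0638), with an offset of 50 (-0.90, adjusted p = 0.0653), within slide 1 (-1.39, adjusted p = 0.0856) and within slide 2 (-1.097, adjusted p = 0.155).

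Of 14 Schwann and satellite glia markers 5 were higher and 3 lower, against 18.4% and 20.4% of all genes, and with the replicate block 9 were higher. The difference between the slides passed the test for 6 of the 14, against 2.52% of all genes. Differences in the list ran from -4.385 to 7.42, and the members named next are among those that were higher. S100b, shared with supporting cells, was at least 35.1-fold higher. Mal and Mbp, myelin genes that epithelia also use, were at 7.42 and 3.69 (adjusted p = 9.24e-05 and 3.82e-04). Mal and Mbp were among the genes that differed between the slides, with a rise larger on slide 2 by 3.49 and 2.37. Neuron markers were lower in 10 of 17 and higher in 2: Stmn2 was 12.81 in ES1 and 13.04 in ES2 and 5.88, 5.17, 5.77 and 5.05 (difference -7.45, adjusted p = 1.93e-06), and Tubb3 and Nefh were at -4.13 and -5.74 (adjusted p = 9.27e-04 and 5.16e-05). Endothelial markers were lower in 8 of 16 and higher in 1. Of 17 macrophage markers 1 was higher and 2 were lower, against 18.4% and 20.4% of all genes, and the median was 0.08. Ptprc, C1qa, C1qc and Cx3cr1 had signals of 6.13 or less in every otosphere and ESC sample. The macrophage list's higher member was Cd14, the endotoxin co-receptor, which epithelia can also express, at 6.78 in ES1 and 6.04 in ES2 and 14.32, 12.92, 12.54 and 10.31 (difference 6.12, adjusted p = 0.00105). Of 10 erythroid markers 2, the alpha globins, were lower in otospheres, and 0 were without OS3, without OS4+OS5 or without OS6. Of 14 motile cilia markers 1 was higher and 3 were lower, with a median of -0.27. The shares lower in both lists are near the 20.4% of all genes.

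The comparison was repeated within each slide, which sets 2 otosphere samples against 1 ESC line each time and takes the lone ESC sample to vary like the other groups. Across the 18567 genes the differences on the slides had a Pearson correlation of 0.758, given as a description, since genes are not independent. All 7213 genes called in the whole comparison had the same sign on both slides, as the test itself favours; 1999 genes were called higher and 2167 lower within both slides on their own, and 97 were called opposite ways. The difference between the slides passed the test for 468 genes (2.52%). Among the 28 pluripotency factors it did so for 3, Zfp42, Klf4 and Tfap2c, among the 28 replication genes for 0, and among the 14 Schwann and satellite glia markers for 6. Genes of this kind that were picked after their values were seen include Zfp638, Rif1 and Cops2, whose signals in ES1 were 6.82, 6.99 and 7.08 against 11.73, 12.15 and 12.15 in ES2, while the 4 otosphere samples lay between 9.35 and 11.53 for all 3. For these 3 the otospheres lay above ES1 and below ES2.

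**Figure D5:**
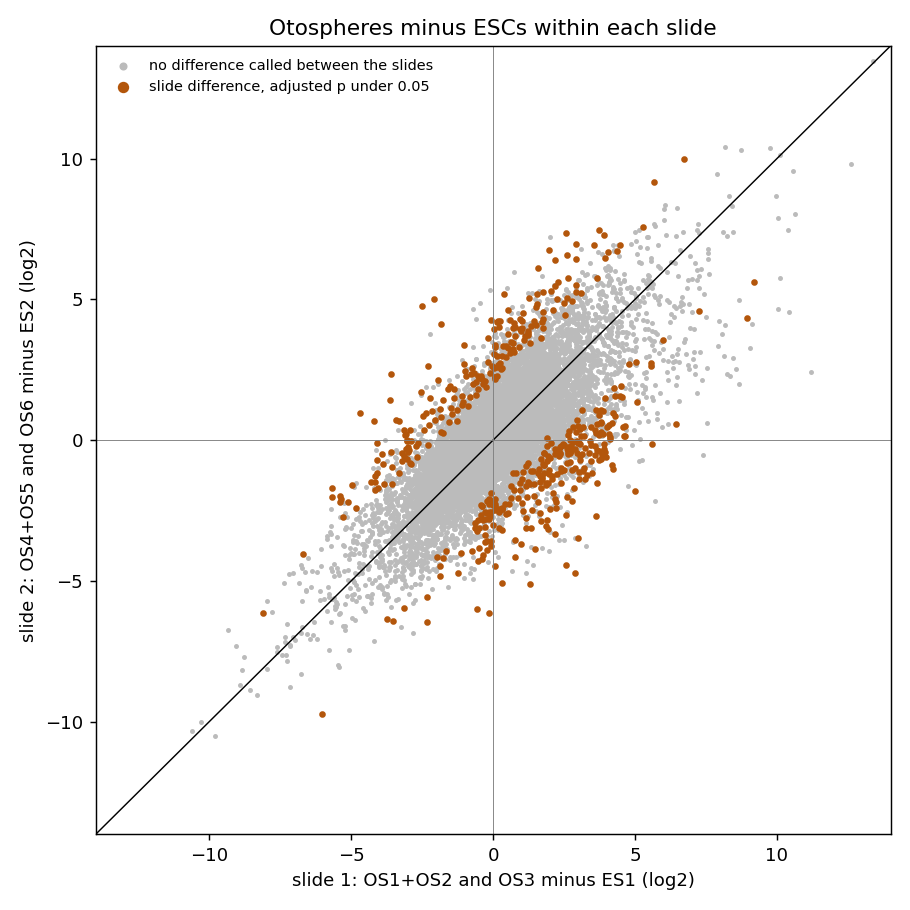
Otospheres minus ESCs on the log2 scale for 18567 genes within slide 1 (x axis, OS1+OS2 and OS3 minus ES1 of line G4-2) and within slide 2 (y axis, OS4+OS5 and OS6 minus ES2 of line D3). Most genes lie along the diagonal, Pearson r 0.758, and orange points are the 468 genes for which the slides differed at an adjusted p under 0.05.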

How the data were processed

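RNA of 11 samples was hybridised by the authors to single-colour mouse arrays of 55681 probes besides controls, from 50 or 100 ng of RNA (which sample had which is not given in the sources used here). The deposited scanner files hold spot intensity from Feature Extraction 10.7.3.1, not normalised. The authors also deposited a table of normalised log2 values, in which most bright probes with repeated spots are on a smaller scale, used as an alternative. Here gMedianSignal was corrected with gBGMedianSignal (normexp, offset 16), quantile normalised over 11 arrays and averaged over spots (R 4.3.3, limma 3.58.1). A probe was kept if 2 or more arrays had it at least 10% above the 95th percentile of their negative controls. A model with 1 mean for each of 3 groups (otospheres, ESCs and the intact CSE, which adds to the estimate of the spread) gave the difference, with empirical Bayes and Benjamini-Hochberg adjustment over the kept probes, after tests on simulated data. A gene is its brightest kept probe. Of the probes, 26762 were named by RefSeq accession, 22 by the study's gene table and 28897 had no name. Named genes were members of 33 lists and the 10 largest changes each way. The latter were called probes named by accession, with no overlap between the groups. Their brighter group was well above background on every array. The comparison and lists were chosen with earlier results of these data known. OS1 with OS2 and OS4 with OS5 differed with an SD of 0.943 and 0.43 times that expected from repeated spots, other pairs with 1.72 to 3.58 times. Alternatives changed the offset, scaling, filter, averaging, samples, slide and test.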

Additional observations from a re-analysis of the deposited data

Results flagged for a closer look

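Among the named results, 9 had an otosphere sample that lay far from the other 3, by a gap, as a share of the range of the 4 samples, beyond Dixon's 95% critical value. Of 239 values examined, chance gives such a gap in about 1 of 20, so these 9 are no more than chance would give. OS3 stood apart for Wfdc18 (0.931 of the range), Xist (0.968), Cdh1 (0.843), Rora (0.835) and Rrp12 (0.841). OS6 stood apart for Lcn2 (0.947) and Otol1 (0.835), and OS1+OS2 for Pigp (0.912) and Oas1a (0.836).

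For 10 named genes the difference between otospheres and ESCs was not the same on both slides, by the interaction term of the limma model; slide 1 holds ES1 of line G4-2 and slide 2 ES2 of line D3, so slide and line cannot be told apart. The difference was higher on slide 2 than on slide 1 for Cnn1 by 5.93 on the log2 scale (adjusted p = 0.0243), Mal by 3.49 (adjusted p = 0.0298), Klf4 by 3.40 (adjusted p = 0.037), Mbp by 2.37 (adjusted p = 0.0371), Sox10 by 2.33 (adjusted p = 0.0466), Six2 by 2.31 (adjusted p = 0.042) and Irx3 by 2.08 (adjusted p = 0.0461). Slide 2 minus slide 1 was -4.06 for Ddx3y (adjusted p = 0.0412), -3.71 for Zfp42 (adjusted p = 0.0267) and -2.89 for Zscan4f (adjusted p = 0.0293).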

How the results depend on the processing

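The counts of 5796 probes higher and 7489 lower stayed within 1.5 times under all 25 alternatives. Leaving out 1 library gave 4605 to 5857 higher and 6305 to 7432 lower, and the other settings 4306 to 7119 and 5658 to 9075. The processed signal scaled to its 75th percentile, which changes both the signal and the scaling, moved the median of all probes from -0.03 to -0.28 and gave 5131 higher and 8941 lower, and median scaling moved it to -0.11. With the replicate number as a block and every array a separate sample, 5014 probes were higher and 5658 lower. The numbers were not taken to pair the samples. Correlations of the deviations of ESC and otosphere arrays lay between -0.0724 and 0.0724. With only ES1 and ES2, their deviations mirror each other, so this check is weak and cannot exclude a pairing. Over 206 named genes, 4934 of 5123 recomputed differences kept sign and call, 108 lost the call, 44 gained it and 37 changed sign; the cause was not tested. Of the named genes, 7 lost the call in the authors' deposited table: Cdkn1a (0.25, adjusted p = 0.369), Igf2r (0.24, 0.363), Isl1 (0.51, 0.069), Nos2 (-0.66, 0.0826), Rb1 (0.16, 0.549), Sox9 (0.54, 0.0554) and Stat3 (0.14, 0.625). Their probes have 2 or 10 spots, and log2 of the processed signal over the deposited value had a median of 1.97 over 15 bright probes of 2 spots and 9.96 over 191 of 10, against 0.992 over 17238 of 1. With deposited values multiplied by the number of spots, an alternative chosen after seeing the data, 0 calls of named genes were lost. For Nr0b1, whose probe has 10 spots, that step gave a difference of -83.25 against -7.52 in the main fit. The rescaling therefore did not suit every probe with repeated spots. The deposited table holds fewer dim probes, and 10 of 16 germ line genes, 3 of 8 genes of the 2-cell stage and 7 of 15 HOX genes were lower in it. The genes that changed sign had not passed the test. Within slide 1 the difference became 0.69 for Cdkn2a, -1.60 for Klf4, 2.31 for Mki67, -0.79 for Myo7a, -1.05 for Phgdh and -0.80 for Psat1. Within slide 2 it became 0.0405 for Cdh1, 2.34 for Cnn1, -0.16 for Ddx3y, -0.32 for Hmga2 and -0.30 for Lifr, and the value for "splicing regulators, median difference" became -0.0694. With the replicate block it became 0.83 for Cdkn2a, -1.10 for Klf4, 1.37 for Mki67, -0.51 for Myo7a, -0.58 for Phgdh and -0.23 for Psat1. The processed signal scaled to its 75th percentile and median scaling gave -0.43 and -0.31 for Klf4, -0.63 and -0.50 for Phgdh, and -0.36 and -0.23 for Psat1. Leaving out 1 library gave a range of -0.58 to 0.0526 for Arntl, -1.53 to 0.27 for Cnn1, -0.25 to 3.998 for Ddx3y, -0.50 to 0.71 for Klf4, -0.21 to 0.74 for Lifr, -1.98 to 0.74 for Mki67, -0.11 to 0.48 for Myo7a and -0.33 to 0.88 for Phgdh. Without OS4+OS5 the difference was -0.22 for Klf4 and -0.20 for Phgdh. Signals not well above background allow only a bound.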
